A study of Mus musculus with 30 samples.

Results

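Day 15 was compared with day 4 after volumetric muscle loss, the surgical removal of part of a muscle, in the tibialis anterior of the mouse, which lifts the foot. The comparison used the 6 libraries labelled 15 days after injury and the 6 labelled 4 days after injury, which are 12 of the 30 libraries of the series. They form 4 groups of 3 libraries each: females at day 4, females at day 15, males at day 4 and males at day 15. Every one of these muscles was injured, so both sides of the comparison share the injury. Libraries of uninjured muscle and of days 7 and 11 (6 each, 3 per sex) are cited for levels. The sources used here name no strain, age or size of defect. Nothing in the labels ties each library to an animal of its own, so p-values measure only the spread among these samples, which may be technical.

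After muscle damage, neutrophils and then monocytes and macrophages enter the tissue and clear debris. Satellite cells, the stem cells of muscle, divide, differentiate and fuse into new fibres that first carry embryonic and neonatal contractile proteins and fetal acetylcholine receptor subunits. Fibroblasts and fibro-adipogenic progenitors, mesenchymal cells that can become fibroblasts or fat cells, lay down matrix, and vessels and nerves grow back. After the loss of a large piece of muscle, repair is known to leave fibrous tissue and too little muscle. The comparison asks which of these programmes had gone down and which had gone up between an early and a later time in the wound.

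Total counts were 47936072 to 57277336 per library at day 4 and 13089999 to 30024528 at day 15, without overlap, so that depth and day cannot be told apart by design. Thinning every library to the smallest total kept 89.4% of the calls, and none changed sign. At day 4, 5.56 to 10.3% of counts fell on the 10 most abundant genes, and at day 15 12.1 to 18.6%. Xist was at 266 to 552 CPM (counts scaled to library size) in the 6 female libraries and at most 3.486 CPM in the 6 male ones, and the Y-linked Ddx3y was at 0 in the females and at 30.64 to 65.79 CPM in the males, so the sex labels held in all 12. The library labelled female day 11 replicate 3, which is on neither side of the comparison, had 57.41 CPM of Ddx3y and 0.109 CPM of Xist; it entered the estimate of the spread and the day 11 levels only, and a fit of the 12 libraries alone kept 98.4% of the calls. Female day 4 replicate 2 stood apart: of 226 named genes it held the lowest day 4 level of 97 and the highest of 77. Without it the rises of developmental fibre genes went from 2 to 1. The falls of fibro-adipogenic, proteoglycan and laminin genes also went from 2 to 1 each. For the other lists described below, counts that it moved by over 1.5 times are given without it. For the named genes described below, calls that it ended are given too. Genes described as further examples were not checked 1 by 1 without it. Over all genes, 86.7% of the calls were kept without it.

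Of the 17136 genes tested, 8934 (52.1%) were called at an adjusted p under 0.05 by edgeR's quasi-likelihood test. Of all genes tested 25.1% were higher at day 15 (4302 genes) and 27% lower (4632 genes), so a change at this threshold was common and the counts of each gene group below are read against these shares. At a size of at least 4-fold, 651 genes were higher and 979 lower. The 6 day 15 libraries lay wholly above the 6 day 4 libraries for 16.5% of genes and wholly below them for 19.4%. Against uninjured muscle, all 6 day 15 libraries lay above for 24.1% of genes and below for 21.1%. Changes are log2 ratios of day 15 over day 4 with the standard error, levels are CPM given as the lowest, median and highest of 6 libraries, and adjusted p-values are over all genes tested. In bulk tissue, fewer cells of a type and less RNA per cell cannot be told apart.

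**Figure D1:**
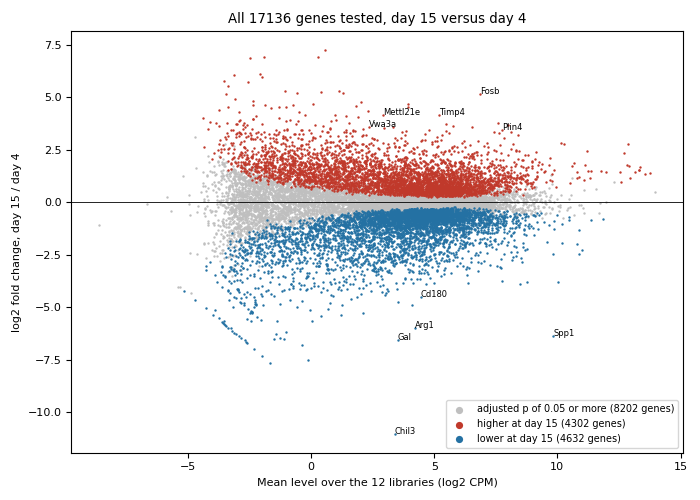
Change from day 4 to day 15 (log2, vertical axis) against the mean level over the 12 libraries (log2 CPM, horizontal axis), 1 point per gene, with 10 genes named. The 4302 genes called higher are red, the 4632 called lower blue and the others grey; the largest falls, such as Chil3, Gal, Spp1 and Arg1, reach further from 0 than the largest rises.

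Promoters are shown from the cell cycle genes, which all fell, and from the fast contractile genes, of which 15 of 22 rose, for the elements they are known for. Genes of mitosis often carry CCAAT boxes, bound by the factor NF-Y, near an element called CHR with the letters TTTGAA. Contractile genes are known for sites of MEF2 and for the CArG box, the site of serum response factor. The sequences are the 250 bases before the RefSeq start of each gene on its own strand (build GRCm38.p6, which is not the build of the counts), with matches on either strand in capitals: CCAAT (or its reverse, ATTGG) and TTTGAA in Cdk1 and Cdc20, and the MEF2 consensus and then the CArG box in Myh4. Cdk1 drives entry into mitosis (chr10:69352913-69353162, minus strand), Cdc20 activates the ubiquitin ligase that ends it (chr4:118437344-118437593, minus strand), and Myh4 is the myosin heavy chain of the fastest fibres (chr11:67237562-67237811, plus strand).
Cdk1: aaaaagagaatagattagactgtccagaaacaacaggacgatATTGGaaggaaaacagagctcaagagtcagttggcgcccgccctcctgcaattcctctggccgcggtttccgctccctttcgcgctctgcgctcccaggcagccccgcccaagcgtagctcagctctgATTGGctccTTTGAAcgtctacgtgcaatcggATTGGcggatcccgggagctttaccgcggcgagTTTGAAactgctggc
Cdc20: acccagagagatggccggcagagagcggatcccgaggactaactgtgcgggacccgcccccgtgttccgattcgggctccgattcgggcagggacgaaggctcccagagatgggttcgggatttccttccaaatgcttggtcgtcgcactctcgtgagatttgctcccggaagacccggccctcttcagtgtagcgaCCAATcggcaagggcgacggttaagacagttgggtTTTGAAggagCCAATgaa
Myh4: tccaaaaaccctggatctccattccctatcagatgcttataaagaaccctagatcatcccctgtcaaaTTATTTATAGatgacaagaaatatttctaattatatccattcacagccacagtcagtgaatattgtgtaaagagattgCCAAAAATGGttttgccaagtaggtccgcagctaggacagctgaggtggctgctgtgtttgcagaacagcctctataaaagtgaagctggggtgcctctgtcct

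In windows of 300 bases, 250 before the start and 50 after it, a CCAAT was found in 17 of 21 promoters of the cell cycle genes (81.0%) and in 37.9% of all 27025 promoters of the RefSeq table. TTTGAA was in 11 of 21 (52.4%) against 18.1% of all, and both were in the same 11 (52.4%) against 7.12%. The MEF2 consensus, 10 bases long, was in 4 of 14 promoters of fast contractile genes (28.6%) against 3.26% of all, and the CArG box, CC and GG around 6 bases of A or T, in 4 of 14 (28.6%) against 1.57%. The table held promoters for 21 of the 24 cell cycle genes and 14 of the 22 fast contractile genes. These are matches of letters on both strands, with overlaps counted for each motif, and not measured binding.

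All 24 cell cycle genes tested fell from day 4 to day 15 (27% of all genes fell), with a median log2 change of -2.41 against -0.0238 over all genes, and none of the 24 overlapped between the days. Mki67, a marker of dividing cells, was at 93.2, 109.95 and 175 CPM at day 4 and at 19.1, 30.9 and 38.6 CPM at day 15 (log2 change -2.05 ± 0.33, adjusted p = 1.7e-05). Ccnb1, the cyclin of mitosis, was at 15.1, 25.1 and 41.4 CPM and then at 0.892, 1.94 and 3.36 CPM (-3.63 ± 0.43, adjusted p = 8.7e-07). Cdc20, whose promoter is printed above, was at 18.03, 26.7 and 38.3 CPM and then at 1.99, 3.02 and 3.88 CPM (-3.19 ± 0.33, adjusted p = 1.2e-07). Female replicate 2 was the highest day 4 library for each of these, and the lowest day 4 library was still above the highest at day 15. Mcm5, part of the helicase of DNA replication, fell by 2.93, Top2a, which untangles chromosomes, by 2.54, and Cdk1 by 2.30 on the log2 scale. Despite the fall, 19 of the 24 were still above uninjured muscle in every day 15 library, where Mki67 was at 0, 0.601 and 1.68 CPM.

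Of 17 core macrophage genes 16 fell and none rose, with a median log2 change of -2.42 and a summed level of 4367 to 6130 CPM at day 4, of 437.3 to 1926 CPM at day 15 and of 46.11 to 81.46 CPM in uninjured muscle. Cd68, a protein of macrophage lysosomes, was at 289, 329 and 375 CPM at day 4 and at 18.2, 41.8 and 90.9 CPM at day 15 (-3.02 ± 0.47, adjusted p = 1.3e-05). Ms4a7, a membrane protein of macrophages, was at 129, 148 and 177 CPM and then at 5.46, 16.4 and 19.4 CPM (-3.47 ± 0.50, adjusted p = 5.3e-06). The days did not overlap for either gene, and male replicate 2 was the lowest at day 15. Adgre1, which encodes the F4/80 antigen, fell with overlap, from 45.2, 68.5 and 117 CPM to 7.54, 15.4 and 57.4 CPM (-1.97 ± 0.41, adjusted p = 3.1e-04), with female replicate 1 the highest at day 15 and the next at 31.63 CPM. Cd14, the lipopolysaccharide co-receptor, was the member not called (-0.70 ± 0.33, adjusted p = 0.08). All 17 remained above uninjured muscle in every day 15 library.

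The genes of repair and lipid-handling macrophages held 2 of the 4 largest falls among genes with a mean of at least 5 CPM and no overlap, passing over predicted or clone-named genes. Of 16 tested, 13 fell and 1 rose, with a median of -2.12. Spp1, osteopontin, a secreted matrix and signalling protein, was at 943, 1818 and 2686 CPM at day 4 and at 9.25, 23.3 and 36.3 CPM at day 15 (-6.38 ± 0.68, adjusted p = 1.4e-07). Gpnmb, a glycoprotein of phagocytes, was at 550.1, 626 and 839 CPM and then at 16.8, 38.7 and 88.2 CPM (-3.87 ± 0.55, adjusted p = 4.3e-06). Arg1, arginase, was at 7.43, 19.4 and 107 CPM and then at 0.162, 0.436 and 0.789 CPM (-5.99 ± 0.65, adjusted p = 1.8e-07), with the highest day 4 value in female replicate 2 and the next at 56.89 CPM. None of these overlapped between the days. Trem2, a lipid-sensing receptor, fell by 3.06 on the log2 scale and Apoe, a lipid carrier, by 1.98, while Lpl, lipoprotein lipase, which fat cells and muscle also make, rose (0.86 ± 0.26, adjusted p = 0.0075).

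Among inflammatory monocyte genes 8 of 14 fell and 1 rose, a rise not called in 8 of the 12 fits that left out 1 library. Chil3, a chitinase-like lectin of macrophages and neutrophils, had 8754 counts over the 6 day 4 libraries and 2 over the 6 at day 15, both in female replicate 1. Per unit of library size it was 1600-fold higher at day 4, with a 95% counting interval of 444-fold to 13200-fold that leaves out the spread between libraries, and against a floor of 6 counts the ratio was 534. In the 12 libraries 65.47 to 75.93% of counts from 1 to 20 were even, as when both mates of a read pair are counted, so that the 2 counts may be 1 fragment and the interval too narrow. Chil3 has near-identical relatives, and the handling of reads shared between genes is not given in the sources used here. Ccr2, the chemokine receptor that brings monocytes into tissue, was at 58.7, 67.8 and 70.6 CPM and then at 8.51, 20.9 and 34.1 CPM (-1.75 ± 0.28, adjusted p = 1.5e-05). Fcgr1, an antibody receptor, fell by 3.41, and Ly6c2, the monocyte surface antigen, by 4.07 on the log2 scale (by 4.72 without female day 15 replicate 3). The days did not overlap for any of these genes.

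The neutrophil list gave 6 falls among 11 genes tested and no rise, and 3 of its genes were too low to test. Csf3r, the receptor for the neutrophil growth factor, was at 35.5, 38.6 and 44.8 CPM at day 4 and at 2.43, 5.64 and 11.7 CPM at day 15 (-2.79 ± 0.33, adjusted p = 4.9e-07), without overlap. S100a8, an abundant granulocyte protein, was not called: it was at 2.73, 6.20 and 10.2 CPM and then at 0.246, 1.53 and 15.7 CPM (-0.88 ± 0.51, adjusted p = 0.15), and female day 15 replicate 3 was above all day 4 libraries. That library also had the highest day 15 level of Cxcl1, at 67.2 CPM.

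In the list of resident and alternatively activated macrophages 4 of 15 rose (2 with scaling by library size alone) and 7 fell. The share that rose was close to that of all genes, of which 25.1% rose and 27% fell. Retnla, a secreted protein of alternatively activated macrophages that fat and connective tissue also make, was at 0.245, 0.882 and 2.35 CPM at day 4 and at 4.78, 26.5 and 59.7 CPM at day 15 (4.70 ± 0.54, adjusted p = 4.0e-07), without overlap. Lyve1, a hyaluronan receptor of lymphatic endothelium and of some resident macrophages, was at 0.783, 2.20 and 4.38 CPM and then at 3.89, 13.1 and 21.1 CPM (2.34 ± 0.42, adjusted p = 6.9e-05); the days overlapped through the highest day 4 library, male replicate 2, and the lowest day 15 library, male replicate 3. Folr2, a folate receptor of resident macrophages, went the other way, from 39.1, 56.02 and 62.5 CPM to 3.08, 9.23 and 21.9 CPM (-2.63 ± 0.38, adjusted p = 5.6e-06). Mrc1, the mannose receptor, fell by 0.87 (adjusted p = 0.0083), a call that was lost without female day 4 replicate 2 (-0.60, adjusted p = 0.0516). The hemoglobin scavenger receptor Cd163 was at 2.32, 5.06 and 12.6 CPM and at 3.98, 6.12 and 12.6 CPM and was not called (0.14 ± 0.33, adjusted p = 0.74), and its sign differs between scalings (-0.14 with library size alone).

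Of 31 cytokines and chemokines 18 fell and 5 rose (3 with scaling by library size alone). Ccl2, which attracts monocytes, was at 28.04, 33.8 and 71.2 CPM at day 4 and at 1.62, 4.24 and 20.4 CPM at day 15 (-2.96 ± 0.46, adjusted p = 1.2e-05). Tgfb1, a driver of matrix production and a brake on immune cells, was at 92.3, 95.6 and 117 CPM and then at 25.7, 32.6 and 35.3 CPM (-1.66 ± 0.21, adjusted p = 1.1e-06). Cxcl5, a neutrophil attractant, fell by 3.63 on the log2 scale, and its relative Cxcl1 rose, from 1.13, 1.82 and 2.36 CPM to 3.61, 12.9 and 67.2 CPM (2.95 ± 0.40, adjusted p = 2.1e-06). None of these 4 overlapped between the days, and all 6 day 15 libraries were above uninjured muscle for each. Il6 also rose (1.66 ± 0.53, adjusted p = 0.011), as did the eosinophil attractant Ccl11 (1.60 ± 0.26, adjusted p = 1.9e-05), while the inflammatory cytokine Il1b was not called (0.27 ± 0.50, adjusted p = 0.67).

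Interferon-stimulated genes fell in 15 of 19 cases with no rise. Mx1, an antiviral GTPase, was at 14.3, 19.9 and 57.3 CPM at day 4 and at 1.22, 1.88 and 3.95 CPM at day 15 (-3.58 ± 0.57, adjusted p = 1.5e-05), with male replicate 3 the highest at day 4. NK and cytotoxic genes fell in 9 of 12 cases with no rise; Gzma, a granzyme, was at 1.83, 2.65 and 4.92 CPM and then at 0.0902, 0.174 and 1.16 CPM (-3.34 ± 0.62, adjusted p = 1.0e-04). Both genes separated the days without overlap.

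None of 11 genes of MHC class II presentation rose and 4 fell (7 in the fit of the 12 libraries alone, and 6 with scaling by library size alone), and all 11 were above uninjured muscle in every day 15 library. H2-Aa, a class II chain, was at 113, 261 and 305 CPM at day 4 and at 99.9, 319.9 and 472 CPM at day 15 (0.14 ± 0.39, adjusted p = 0.78), against 8.16, 16.02 and 21.5 CPM in uninjured muscle. At day 15 male replicate 3 was the lowest for it, and the days overlapped. Ctss, the protease that trims the class II chaperone, fell, from 685, 803 and 903 CPM to 20.3, 64.4 and 128 CPM (-3.77 ± 0.53, adjusted p = 3.9e-06). Of 12 dendritic cell genes 2 fell, and of 16 T cell genes 2 rose and 1 fell (1 to 3 and 1 to 2 with 1 library left out, and 1 rise without female day 4 replicate 2), where Cd3e was at most 0.599 CPM in any of the 12 libraries. Whether these shares differ from those of the macrophage lists was not tested.

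Among 14 complement genes 7 rose and 5 fell. C1s1, a protease of the classical pathway made by fibroblasts, rose from 39.1, 52.8 and 62.3 CPM to 79.3, 112 and 160.4 CPM (1.18 ± 0.16, adjusted p = 2.7e-06), and C3ar1, the receptor of a complement fragment on myeloid cells, fell from 118, 148 and 193 CPM to 5.11, 11.5 and 17.5 CPM (-3.85 ± 0.43, adjusted p = 2.4e-07). Lysosomal genes fell in 15 of 18 cases with none rising, led by the cathepsin gene Ctsh at 151, 166 and 201 CPM and then at 14.7, 30.04 and 52.7 CPM (-2.48 ± 0.31, adjusted p = 9.9e-07).

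**Figure D2:**
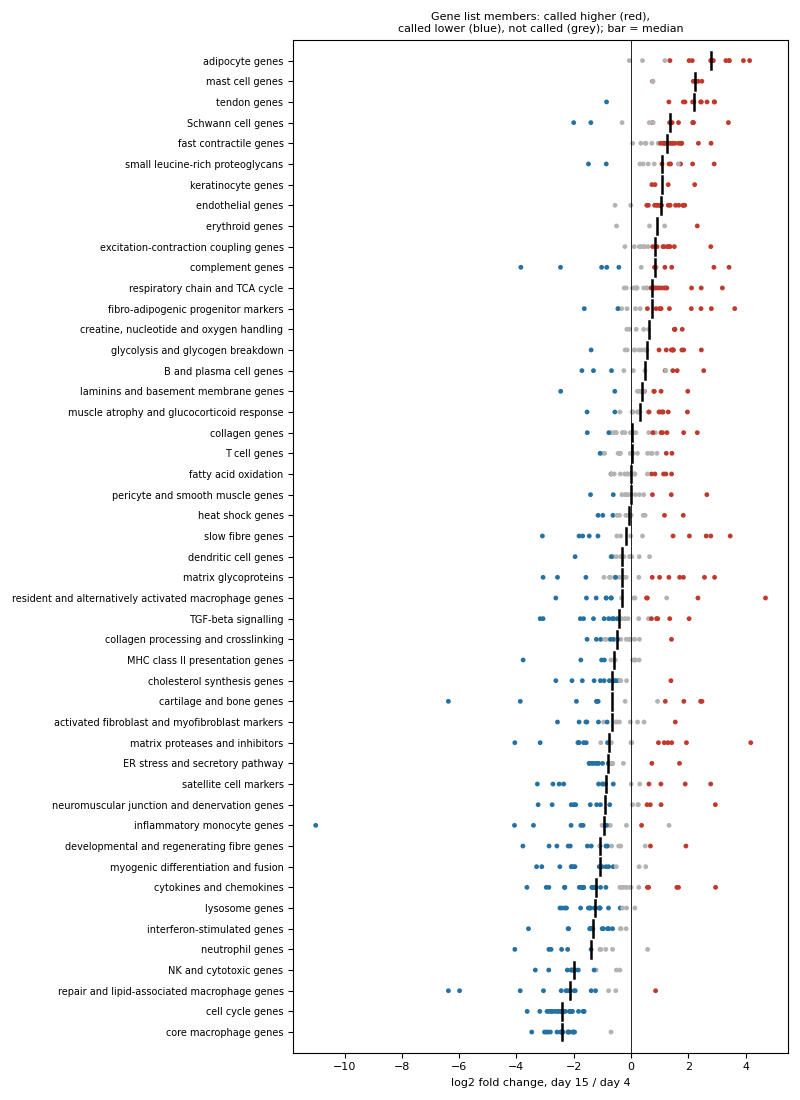
Change from day 4 to day 15 (log2, horizontal axis) for each member of the 48 gene lists (vertical axis), ordered by the list's median, drawn as a black bar. Red points rose, blue points fell and grey points were not called. The cell cycle and core macrophage lists lie at -2.41 and -2.42 and the adipocyte list at 2.78.

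Of 22 fast contractile genes 15 rose and none fell (25.1% of all genes rose), with a median of 1.25, and the summed level was 14120 to 79160 CPM at day 4, 87130 to 182900 CPM at day 15 and 420700 to 580300 CPM in uninjured muscle. In 17 of the 22 every day 15 library was below every uninjured one. The list also holds sarcomere genes that are not particular to fast fibres, such as Ttn, Acta1 and Mybpc1. Myh4, whose promoter is printed above, was at 807, 4574 and 9266 CPM at day 4, at 8466, 18707 and 21200.00 CPM at day 15 and at 65712, 82711 and 109150.00 CPM in uninjured muscle (1.67 ± 0.47, adjusted p = 0.0046). Tnni2, the inhibitory troponin of fast fibres, was at 293, 2457 and 3094 CPM and then at 8492, 11027 and 13806 CPM (2.35 ± 0.44, adjusted p = 1.0e-04). Pvalb, the calcium buffer of fast fibres, was at 66.7, 1952 and 3573 CPM and then at 8839.6, 14765 and 15780.00 CPM (2.79 ± 0.59, adjusted p = 3.7e-04; 3.44 without female day 4 replicate 3). Tnni2 and Pvalb did not overlap between the days and Myh4 did. Female replicate 2 was the lowest day 4 library for all 3, with the next at 3646 CPM of Myh4 and 1272 CPM of Pvalb. Without it 12 of the 22 rose, with a median of 0.99. Myh1, another fast myosin, was at 568, 3487 and 5441 CPM and at 3200.1, 7025 and 8624 CPM and was not called (0.95 ± 0.41, adjusted p = 0.057).

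Of 16 genes of excitation-contraction coupling 9 rose and none fell (6 without female day 4 replicate 2, and 6 with scaling by library size alone). Trdn, triadin, which anchors calcium store proteins, was at 59.05, 290.2 and 588 CPM at day 4 and at 1807, 2061 and 2705 CPM at day 15 (2.79 ± 0.43, adjusted p = 1.1e-05). Ryr1, the calcium release channel, was at 543, 1135 and 1356 CPM and then at 2048, 2392 and 2874 CPM (1.15 ± 0.27, adjusted p = 0.0011). Of 24 genes of the respiratory chain and the TCA cycle 13 rose and none fell (10 without female day 4 replicate 2). Cox7a1, the muscle form of a subunit of cytochrome oxidase, was at 7.29, 84.1 and 107 CPM and then at 481, 595 and 726 CPM (3.19 ± 0.43, adjusted p = 2.1e-06), whereas Cox5a, a subunit of all tissues, was not called (0.05 ± 0.49, adjusted p = 0.94). No day 15 library overlapped with day 4 for Trdn, Ryr1 or Cox7a1.

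Glycolysis and glycogen breakdown had 9 of 19 genes higher and 1 lower, and all 19 were below uninjured muscle in every day 15 library. Pgam2, the muscle phosphoglycerate mutase, was at 179, 809 and 1019.7 CPM at day 4 and at 3018, 4139 and 4984 CPM at day 15 (2.46 ± 0.39, adjusted p = 1.6e-05), without overlap. The gene that fell was Pgk1, phosphoglycerate kinase, which every tissue uses (-1.39 ± 0.47, adjusted p = 0.016). Fatty acid oxidation gave 5 rises and 1 fall among 19 genes (6 falls with scaling by library size alone); Acadvl, which acts on long chains, rose (1.22 ± 0.29, adjusted p = 0.001). Acadm, which acts on medium chains, was at 58.6, 76.9 and 92.8 CPM and at 45.97, 82.6 and 97.3 CPM (-0.04 ± 0.33, adjusted p = 0.93). The muscle creatine kinase Ckm was not called, at 321, 1891 and 2567 CPM and then at 1788, 2641 and 3826 CPM (0.61 ± 0.49, adjusted p = 0.3), with uninjured muscle at 19785, 29421 and 37092 CPM.

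The slow fibre list did not move one way: 5 of 14 genes rose and 5 fell. Myl2, the slow regulatory light chain, was at 0.196, 3.39 and 13.1 CPM at day 4 and at 18.6, 48.5 and 90.6 CPM at day 15 (3.46 ± 0.90, adjusted p = 0.0025; 4.47 without female day 4 replicate 1). Sln, sarcolipin, an inhibitor of the calcium pump, was at 17.004, 78.4 and 136 CPM and then at 309.8, 426 and 1088 CPM (2.79 ± 0.45, adjusted p = 2.1e-05), against 0.382, 2.16 and 3.86 CPM in uninjured muscle. Tnni1, the slow troponin that newly formed fibres also make, was at 279.7, 355 and 452 CPM and then at 22.5, 35.6 and 79.2 CPM (-3.09 ± 0.57, adjusted p = 9.3e-05). Each of these 3 separated the days without overlap, Myl2 and Sln upward and Tnni1 downward. Myh7, the slow myosin, rose (2.04 ± 0.68, adjusted p = 0.014), and this call was lost without male day 15 replicate 3 (1.63, adjusted p = 0.0533).

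Of 17 developmental and regenerating fibre genes 10 fell and 2 rose. Myh3, the embryonic myosin, was at 1578, 1947 and 2320.1 CPM at day 4, 608, 887 and 2013 CPM at day 7, 70.3, 604 and 771 CPM at day 11 and 92.3, 114 and 319 CPM at day 15 (-3.78 ± 0.51, adjusted p = 2.2e-06), against 1.53, 4.03 and 8.04 CPM in uninjured muscle. Myh8, the neonatal myosin, was at 391, 557 and 862 CPM and then at 152, 198 and 308 CPM (-1.52 ± 0.40, adjusted p = 0.0028). Both were lower in every day 15 library than in any day 4 library and still above all uninjured libraries. Tnnt2, the troponin of heart and of embryonic muscle, fell by 2.59 and Mest, an imprinted gene of growing tissue, by 2.86 on the log2 scale. Dlk1, an imprinted regulator, rose (1.92 ± 0.44, adjusted p = 8.9e-04).

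Genes of myogenic differentiation and fusion fell in 13 of 16 cases with none rising. Myog, the factor that commits myoblasts to differentiate, was at 401, 516 and 539 CPM at day 4 and at 78.6, 109 and 171 CPM at day 15 (-2.09 ± 0.33, adjusted p = 1.8e-05). Mymk, myomaker, a membrane protein that fuses myoblasts, was at 340.2, 371 and 435 CPM and then at 33.6, 35.6 and 71.2 CPM (-3.12 ± 0.43, adjusted p = 2.8e-06), and its partner Mymx, myomixer, fell by 2.48 on the log2 scale. The days did not overlap for any of the 3, and day 15 stayed above the uninjured libraries, which had no count of Mymx. Among 15 satellite cell markers 9 fell and 4 rose. Pax7, the defining factor of these cells, was at 7.65, 10.6 and 17.99 CPM and then at 0.610, 1.17 and 2.03 CPM (-3.27 ± 0.34, adjusted p = 1.3e-07), and the day 15 levels overlapped those of uninjured muscle, 0.597, 1.79 and 3.57 CPM. Cdh15, the cadherin of satellite cells, was at 72.9, 87.004 and 119.6 CPM and then at 10.5, 13.5 and 20.1 CPM (-2.73 ± 0.18, adjusted p = 2.8e-10), below every uninjured library. Calcr, the calcitonin receptor of quiescent satellite cells, was among the genes that rose (1.89 ± 0.46, adjusted p = 0.0016), and so was the BMP antagonist Chrdl2 (2.78 ± 0.52, adjusted p = 9.6e-05).

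**Figure D3:**
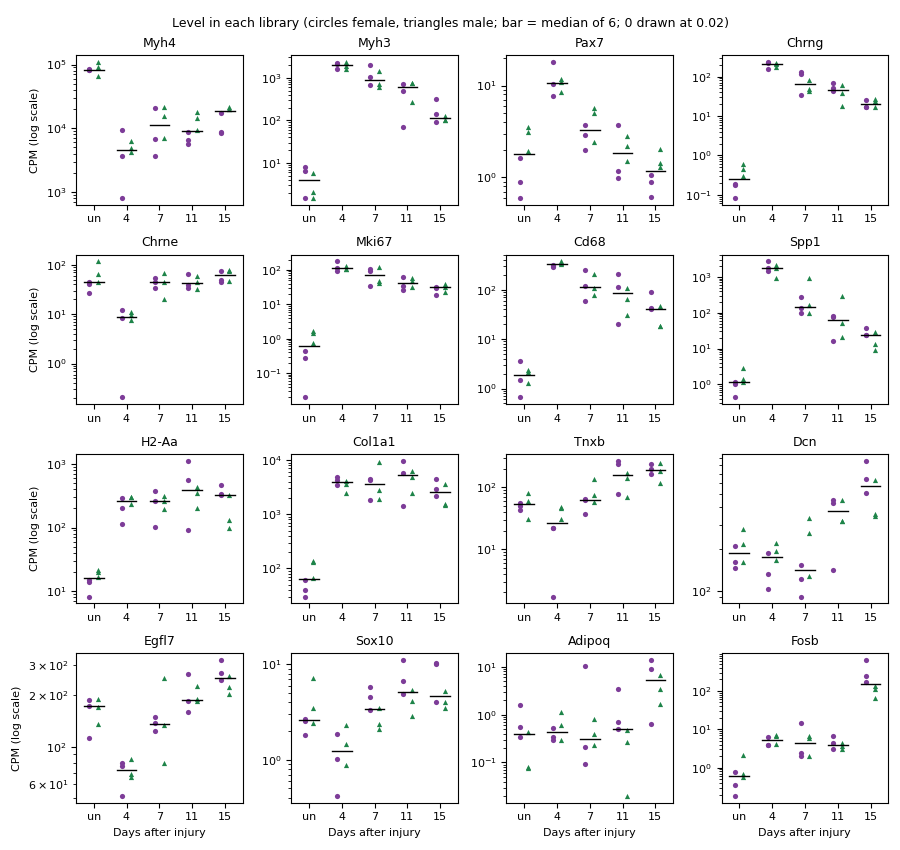
Level of 16 genes in each library (CPM, log axis) by days after injury, with "un" for uninjured muscle; circles are female and triangles male libraries, and bars are medians of 6. Myh3, Pax7, Chrng, Cd68 and Spp1 are lower at day 15 than at day 4 in every library, Chrne, Tnxb, Dcn, Egfl7, Sox10 and Fosb higher, and H2-Aa and Col1a1 overlap.

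Subunits of the acetylcholine receptor moved in opposite directions. Chrng, the fetal subunit, was at 153, 211 and 234 CPM at day 4 and at 16.5, 20.3 and 27.2 CPM at day 15 (-3.24 ± 0.30, adjusted p = 3.0e-08). Chrne, the adult subunit that takes its place at innervated junctions, was at 0.209, 8.87 and 12.2 CPM and then at 45.2, 61.1 and 79.6 CPM (2.94 ± 0.48, adjusted p = 2.0e-05), with 0.209 CPM in female day 4 replicate 2 and 7.493 CPM in the next library. Neither gene overlapped between the days. Chrna1, the ligand-binding subunit, fell from 431, 473 and 619 CPM to 42.95, 68.96 and 139 CPM (-2.75 ± 0.35, adjusted p = 1.0e-06). Chrnb1, present in both receptor forms, was at 115, 148 and 182 CPM and at 127, 165 and 285 CPM and was not called (0.25 ± 0.22, adjusted p = 0.34). Day 15 levels of Chrne overlapped those of uninjured muscle, 26.97, 44.7 and 117 CPM, and those of Chrng were above them, 0.0833, 0.245 and 0.620 CPM. Agrn, agrin, which clusters the receptor, rose by 1.05 (adjusted p = 9.3e-04). In the whole list of junction and denervation genes 4 of 16 rose (2 with library size alone, and 2 without male day 4 replicate 2) and 9 fell.

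Schwann cell genes rose in 8 of 13 cases and fell in 2. Sox10, the factor that defines the lineage, was at 0.417, 1.24 and 2.32 CPM at day 4 and at 3.49, 4.65 and 10.5 CPM at day 15 (2.18 ± 0.35, adjusted p = 1.6e-05). It separated the days and overlapped uninjured muscle at day 15. The genes that fell were Ngfr, a neurotrophin receptor of Schwann cells without an axon (-1.40 ± 0.29, adjusted p = 3.2e-04), and Erbb3, the neuregulin receptor (-2.002 ± 0.18, adjusted p = 2.2e-08).

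Atrophy genes were mixed, with 7 of 17 higher and 2 lower. The ubiquitin ligases Fbxo32 and Trim63 were not called: Fbxo32 was at 46.02, 110.4 and 194 CPM at day 4 and at 85.5, 132 and 246 CPM at day 15 (0.22 ± 0.35, adjusted p = 0.61), and Trim63 at 59.7, 126 and 168 CPM and then at 95.7, 148 and 154 CPM (0.07 ± 0.27, adjusted p = 0.84). Both signs turn with scaling by library size alone (-0.06 and -0.19). Foxo1, a factor that drives these ligases, rose from 14.8, 16.7 and 19.1 CPM to 30.7, 42.4 and 46.5 CPM (1.30 ± 0.16, adjusted p = 6.4e-07), and Cdkn1a, which stops the cell cycle, fell from 333, 400.3 and 524 CPM to 90.9, 125 and 240.5 CPM (-1.54 ± 0.36, adjusted p = 9.2e-04). Neither of them overlapped between the days.

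Of 18 endothelial genes 16 rose, none fell and 14 separated the days. Egfl7, a protein secreted by endothelium, was at 51.3, 73.3 and 84.8 CPM at day 4 and at 205, 253 and 322 CPM at day 15 (1.83 ± 0.21, adjusted p = 4.7e-07). Cldn5, of endothelial tight junctions, was at 14.1, 20.9 and 27.5 CPM and then at 60.8, 68.9 and 114 CPM (1.88 ± 0.23, adjusted p = 6.0e-07). Sox17, a factor of arteries, was at 7.999, 15.1 and 18.4 CPM and then at 45.8, 50.4 and 55.5 CPM (1.82 ± 0.22, adjusted p = 7.1e-07). In 13 of the 18 every day 15 library was above every uninjured one, these 3 among them. The genes not called were Vwf, the clotting protein (-0.01 ± 0.20, adjusted p = 0.98), and Apln, a tip cell ligand (-0.56 ± 0.27, adjusted p = 0.082). Of 14 pericyte and smooth muscle genes 3 rose and 2 fell; Myh11, the smooth muscle myosin, was at 9.19, 14.8 and 24.8 CPM and then at 66.6, 105 and 143 CPM (2.65 ± 0.26, adjusted p = 4.9e-08), and Cspg4, the pericyte proteoglycan NG2, was not called (-0.11 ± 0.16, adjusted p = 0.58).

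No change was called for the main fibrillar collagen genes. Col1a1 was at 2506, 3922 and 4916 CPM at day 4 and at 1495, 2581 and 4541 CPM at day 15 (-0.51 ± 0.42, adjusted p = 0.31), and Col1a2 at 2364, 3277 and 4248 CPM and then at 1985, 3156 and 5548 CPM (-0.02 ± 0.39, adjusted p = 0.97). These genes encode the chains of type I collagen, the main fibre of scar, and a change could not be shown for either; uninjured muscle had 30.2, 62.7 and 139 CPM of Col1a1. The days overlapped for both, and male replicate 3 was the lowest at day 15. Of 20 collagen genes 6 rose and 2 fell (5 and 5 with scaling by library size alone; falls were 0 without female day 4 replicate 2 and 1 without male day 15 replicate 3 or female day 15 replicate 1), and 18 were above uninjured muscle in every day 15 library. The basement membrane collagens Col4a1 (0.76 ± 0.19, adjusted p = 0.0017) and Col4a2 (1.26 ± 0.17, adjusted p = 3.1e-06) were among those that rose, as was Col24a1, from 5.13, 7.16 and 9.38 CPM to 16.6, 42.6 and 59.7 CPM (2.31 ± 0.49, adjusted p = 3.7e-04).

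Of 20 matrix glycoproteins 7 rose and 4 fell (5 and 7 with scaling by library size alone), and all 20 were above uninjured muscle in every day 15 library. Tnc, tenascin-C, a protein of fresh wounds, was at 269, 531 and 819 CPM at day 4 and at 34.3, 82.3 and 182 CPM at day 15 (-2.57 ± 0.62, adjusted p = 0.0013). Tnxb, tenascin-X, a protein of settled connective tissue, was at 1.72, 26.8 and 48.4 CPM and then at 119, 189.7 and 251 CPM (2.92 ± 0.43, adjusted p = 5.9e-06), with the lowest day 4 value in female replicate 2 and 22.04 CPM in the next. These related genes moved in opposite directions without overlap. The elastic fibre gene Eln also rose (2.56 ± 0.25, adjusted p = 4.4e-08), while fibronectin, Fn1, and periostin, Postn, were not called (-0.76 ± 0.42, adjusted p = 0.13, and -0.41 ± 0.48, adjusted p = 0.49).

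Among 13 small leucine-rich proteoglycans, which bind collagen fibrils, 6 rose (10 in the fit of the 12 libraries alone) and 2 fell. Dcn, decorin, was at 103, 177 and 221 CPM at day 4 and at 348, 568 and 863 CPM at day 15 (1.73 ± 0.27, adjusted p = 1.5e-05). Kera, keratocan, was at 0.344, 5.68 and 7.71 CPM and then at 16.01, 37.2 and 66.8 CPM (2.90 ± 0.59, adjusted p = 2.8e-04). Both separated the days and were above uninjured muscle. Bgn, biglycan, was 1 of the 2 that fell, and its call was lost without any 1 of 7 libraries (-0.86, adjusted p = 0.0635, without female day 4 replicate 2). Collagen processing genes fell in 6 of 17 cases (3 without female day 4 replicate 2) and rose in 1; Loxl3, a crosslinking oxidase, was at 67.8, 95.97 and 145 CPM and then at 25.4, 30.4 and 63.6 CPM (-1.53 ± 0.33, adjusted p = 4.5e-04). Of 13 laminins and basement membrane genes 5 rose (3 without female day 15 replicate 2, 3 with library size alone and 8 with the 12 libraries alone) and 2 fell, with Lamb2, a laminin chain of mature muscle and of the junction, at 95.1, 137 and 154 CPM and then at 214, 229.9 and 254 CPM (0.81 ± 0.17, adjusted p = 4.7e-04).

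Proteases and their inhibitors were divided, with 6 of 20 higher and 9 lower. Timp4, an inhibitor of matrix metalloproteases, was at 0.712, 4.15 and 10.03 CPM at day 4 and at 27.1, 63.4 and 139.9 CPM at day 15 (4.18 ± 0.61, adjusted p = 5.8e-06), while its relative Timp1 fell (-1.85 ± 0.42, adjusted p = 7.3e-04). Mmp2, a gelatinase of fibroblasts, was at 86.2, 100.4 and 133 CPM and then at 153, 233 and 426 CPM (1.29 ± 0.29, adjusted p = 7.3e-04). Mmp9, a gelatinase of myeloid cells, was at 3.78, 7.12 and 13.4 CPM and then at 0, 0.553 and 1.60 CPM (-4.06 ± 0.68, adjusted p = 3.1e-05; -5.03 without male day 15 replicate 1). No overlap was seen for Timp4, Mmp2 or Mmp9.

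The 20 TGF-beta signalling genes gave 5 rises and 10 falls. Besides the ligand Tgfb1, the binding protein Ltbp2 fell, from 39.3, 50.3 and 88.6 CPM to 2.96, 6.04 and 10.5 CPM (-3.07 ± 0.46, adjusted p = 6.9e-06), and its relative Ltbp4 rose, from 38.97, 82.3 and 106 CPM to 272, 311 and 452 CPM (2.03 ± 0.20, adjusted p = 5.8e-08). Both separated the days. The receptors Tgfbr1 (-0.94 ± 0.17, adjusted p = 5.5e-05) and Tgfbr2 (-0.78 ± 0.24, adjusted p = 0.0095) fell, and the co-receptor Tgfbr3 rose (1.35 ± 0.13, adjusted p = 3.2e-08). Myofibroblast markers fell in 6 of 14 cases and rose in 1; Acta2, the actin of contractile fibroblasts and of vessel walls, was at 416, 699 and 787 CPM and then at 210.5, 290.3 and 517 CPM (-1.14 ± 0.36, adjusted p = 0.0099), overlapping between the days and above uninjured muscle in every day 15 library.

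Markers of fibro-adipogenic progenitors rose in 9 of 16 cases and fell in 2. Clec3b, a plasminogen-binding protein of connective tissue, was at 0.663, 9.98 and 15.9 CPM at day 4 and at 59.2, 97.3 and 132 CPM at day 15 (3.62 ± 0.38, adjusted p = 1.3e-07). Pi16, a marker of progenitors around vessels, was at 1.57, 8.39 and 11.3 CPM and then at 35.1, 42.3 and 89.8 CPM (2.80 ± 0.34, adjusted p = 7.0e-07). Dpt, dermatopontin, was at 21.1, 54.3 and 86.2 CPM and then at 121, 327 and 463 CPM (2.44 ± 0.34, adjusted p = 3.3e-06). All 3 separated the days and lay above uninjured muscle. Pdgfra, the receptor that defines these cells, was not called, at 42.8, 44.6 and 67.6 CPM and then at 31.6, 34.3 and 43.4 CPM (-0.44 ± 0.19, adjusted p = 0.056).

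Tendon genes rose in 10 of 11 cases and fell in 1, with a summed level of 289 to 584.1 CPM at day 4, 994.3 to 2643 CPM at day 15 and 160.7 to 485.2 CPM in uninjured muscle. The gene that fell was Scx, a transcription factor of tendon cells, and this call was lost without any 1 of 4 libraries (-0.76 without female day 15 replicate 1). Mkx, a factor of tendon cells, was at 0.735, 1.10 and 1.36 CPM and then at 2.04, 3.995 and 7.64 CPM (1.88 ± 0.42, adjusted p = 6.1e-04), and Tnmd, tenomodulin, rose (2.19 ± 0.47, adjusted p = 4.7e-04). Adipocyte genes rose in 10 of 13 cases with no fall, with a summed level of 129 to 244.9 CPM at day 4, 483.9 to 1101 CPM at day 15 and 323 to 671.4 CPM in uninjured muscle. Adipoq, adiponectin, a hormone of fat cells, was at 0.294, 0.440 and 1.14 CPM and then at 0.646, 5.19 and 13.7 CPM (3.43 ± 0.86, adjusted p = 0.0019), overlapping through female day 15 replicate 2, and Pck1, a gene of glycerol synthesis in fat, was at 0.0491, 0.271 and 0.494 CPM and then at 0.717, 4.59 and 6.72 CPM without overlap (3.92 ± 0.92, adjusted p = 0.0011). The share of fat or tendon in each dissected piece is not given in the sources used here, and its part in the other changes was not tested.

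Mast cell genes rose in 6 of 7 cases with no fall; Mcpt4, a mast cell protease, was at 0.319, 0.643 and 0.865 CPM at day 4 and at 1.17, 3.66 and 7.99 CPM at day 15 (2.47 ± 0.42, adjusted p = 3.7e-05), with female replicate 3 the highest. All 4 keratinocyte genes tested of 10 listed rose, with a summed level of 12.45 to 16.88 CPM at day 4 and of 18.8 to 38.1 CPM at day 15, among them Trp63, a factor of basal skin cells and of some other tissues, at 5.74, 7.39 and 8.20 CPM and then at 8.94, 17.4 and 28.1 CPM (1.30 ± 0.24, adjusted p = 7.9e-05). The keratins of basal skin cells were too low to test, with 14 counts of Krt5 and 6 of Krt14 over the 6 day 4 libraries and 3 and 12 over the 6 at day 15. Per unit of library size the day 4 to day 15 ratio was 1.71 for Krt5 (95% counting interval 0.477 to 9.27) and 0.183 for Krt14 (0.0564 to 0.527). As for Chil3, these intervals leave out the spread between libraries and may be too narrow, so a change is shown for neither. Other members too low to test had fewer counts at day 15, where the totals were also lower. Lor had 17 counts at day 4 and 4 at day 15. Krt15 had 8 and 0, Krt1 4 and 0 and Dsg3 2 and 0. The rise of the tested members was thus not shown for the list as a whole. The part of skin in the other changes was not tested. The 4 haemoglobin genes of blood together had 1 count in these 12 libraries. The handling of reads shared between near-identical genes is not given, so this count does not show how much blood the samples held. Cartilage and bone genes gave 4 rises and 6 falls among 12, with a median of -0.677. Their summed level was 997 to 2758 CPM at day 4 and 66.08 to 116.7 CPM at day 15. Most of the day 4 sum was Spp1, described above with the macrophage genes. Spp1 fell and was the called member with the largest change. The fall of the sum is therefore mainly that of Spp1 and not of the list as a whole. The bone mineralising enzyme Alpl, which endothelium also makes, was at 2.53, 7.93 and 10.5 CPM and then at 20.7, 43.4 and 52.3 CPM without overlap (2.48 ± 0.42, adjusted p = 3.5e-05).

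**Figure D4:**
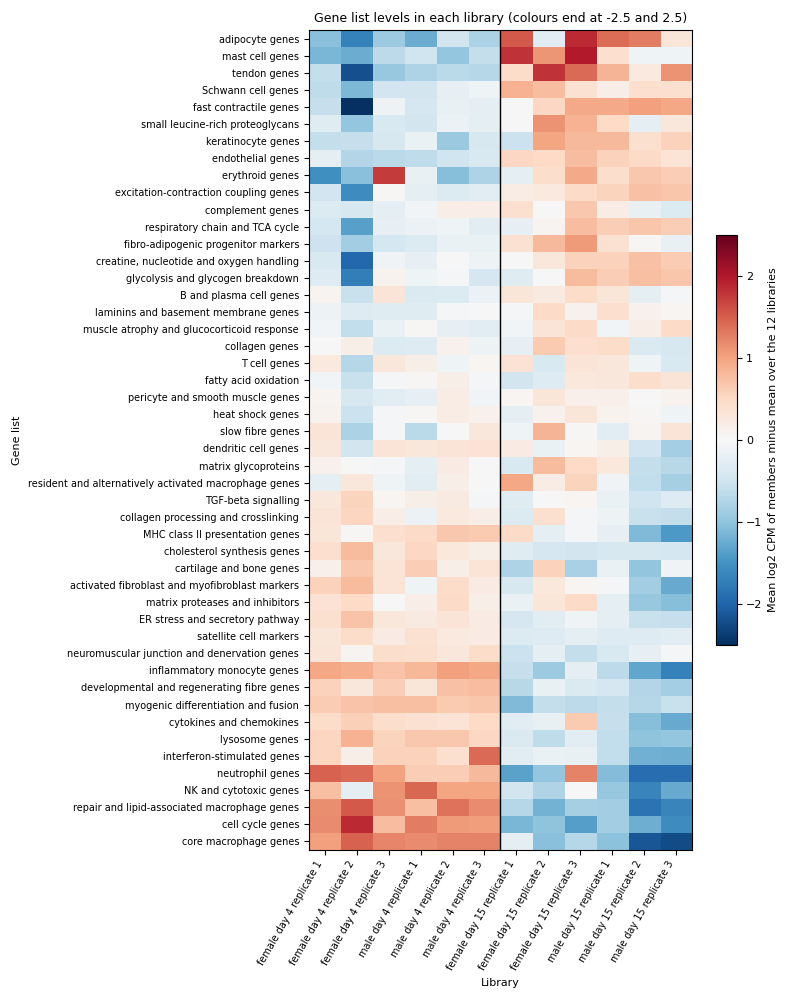
Mean log2 CPM of the members of each gene list (rows) in each of the 12 libraries (columns, day 4 left of the line and day 15 right), minus the list's mean over the 12. Red is above and blue below that mean; female day 4 replicate 2 is darkest blue for fast contractile, glycolysis, respiratory and tendon genes among the day 4 libraries.

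Of 17 genes of ER stress and the secretory pathway 12 fell and 2 rose. Hspa5, the main chaperone of the endoplasmic reticulum, was at 343, 371 and 567 CPM at day 4 and at 155, 164 and 193 CPM at day 15 (-1.23 ± 0.23, adjusted p = 1.2e-04). Ddit3, a factor of the stress response, was at 7.95, 15.3 and 16.5 CPM and then at 35.1, 44.5 and 63.4 CPM (1.69 ± 0.23, adjusted p = 1.9e-06). The chaperone fell and the stress factor rose, each without overlap. Cholesterol synthesis genes fell in 10 of 14 cases and rose in 1; Srebf2, the factor that drives the pathway, fell by 1.70 on the log2 scale. Heat shock genes gave 2 rises and 3 falls among 14, with Hspa1a at 2.09, 2.34 and 3.34 CPM and then at 5.59, 8.37 and 15.9 CPM (1.82 ± 0.24, adjusted p = 2.1e-06).

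The largest rise among named genes with a mean of at least 5 CPM and no overlap was Fosb, a transcription factor of the immediate early class, genes that switch on within minutes of a stimulus. Fosb was at 3.83, 5.18 and 7.18 CPM at day 4, 1.98, 4.27 and 14.2 CPM at day 7, 3.05, 3.92 and 6.81 CPM at day 11 and 65.9, 152 and 629.7 CPM at day 15 (5.17 ± 0.49, adjusted p = 3.8e-08), and at 0.184, 0.624 and 2.13 CPM in uninjured muscle. Fos was at 22.3, 29.4 and 43.4 CPM at day 4 and at 185, 334 and 1197 CPM at day 15 (3.70 ± 0.43, adjusted p = 3.9e-07). Female replicate 3 was the highest at day 15 for both. A list of 26 immediate early genes, written after these values were seen, had 19 higher and 2 lower at day 15 with a median of 1.5. Of all genes 25.1% were higher and 27% lower. For 12 of the 26 every day 15 library was above every library of days 4, 7 and 11. The share of all genes that did so was not computed, so the 12 cannot be read against it. In the list Nr4a1, an orphan receptor, was at 22.8, 48.8 and 62.1 CPM and then at 180.3, 364 and 686 CPM (3.05 ± 0.40, adjusted p = 1.5e-06) and the phosphatase Dusp1 at 30.4, 40.7 and 49.3 CPM and then at 124, 235 and 424 CPM (2.62 ± 0.30, adjusted p = 3.6e-07). Fosl1 and Myc fell (-4.11 ± 0.69, adjusted p = 3.9e-05, and -1.002 ± 0.26, adjusted p = 0.0027). Per library, the mean log2 CPM of the list lay between 5.22 and 6.99 at day 15, between 4.28 and 4.59 at day 4, between 3.82 and 4.5 at day 7, between 3.75 and 4.39 at day 11, and between 2.95 and 4 in uninjured muscle. At day 15 the male libraries were at 5.219 to 5.422 and the female ones at 5.815 to 6.987, though a difference between the sexes was called for no gene. How long the muscles lay before RNA was preserved is not given in the sources used here, and its part in these values was not tested.

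Other leading rises were of matrix and metabolic genes. Hmcn2, hemicentin, a large matrix protein, was at 3.10, 29.9 and 47.2 CPM at day 4 and at 281, 379 and 409.9 CPM at day 15 (3.77 ± 0.40, adjusted p = 1.3e-07), above uninjured muscle at 34.3, 59.8 and 77.5 CPM. Plin4, which coats lipid droplets, was at 5.39, 39.02 and 52.5 CPM and then at 228, 329 and 647 CPM (3.47 ± 0.57, adjusted p = 2.3e-05), and uninjured muscle overlapped day 15 at 303, 411 and 583 CPM. Mettl21e, a methyltransferase of muscle, was at 0.123, 0.773 and 1.32 CPM and then at 7.89, 13.6 and 22.3 CPM (4.18 ± 0.52, adjusted p = 9.9e-07). The lowest day 4 value of all 3 was in female replicate 2. Spon2, a secreted matrix protein, rose by 4.54 ± 0.55, Depp1, a target of FOXO factors, by 3.74 ± 0.47, Vwa3a by 3.59 ± 0.50 and Arrdc2, an arrestin-domain protein, by 3.59 ± 0.42, each without overlap.

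Leading falls outside the myeloid lists included Gal, galanin, a neuropeptide, at 14.7, 23.7 and 29.8 CPM at day 4 and at 0.0776, 0.234 and 0.493 CPM at day 15 (-6.53 ± 0.54, adjusted p = 2.0e-08), a level that overlapped uninjured muscle. Hmga2, a chromatin protein of growing cells, was at 6.78, 8.15 and 21.96 CPM and then at 0.123, 0.674 and 0.744 CPM (-4.21 ± 0.50, adjusted p = 5.6e-07). R3hdml, a secreted protein, was at 26.3, 30.97 and 44.2 CPM and then at 0.405, 0.630 and 2.55 CPM (-4.87 ± 0.56, adjusted p = 5.8e-07). None of the 3 overlapped between the days. The other leading falls were Cd300lf (-4.73 ± 0.47), an inhibitory receptor of myeloid cells, Cd180 (-4.51 ± 0.56), a relative of Toll-like receptors, Slpi (-4.41 ± 0.65), a protease inhibitor, Stra6l (-4.31 ± 0.55), a retinol-binding protein receptor, Ptprn (-4.20 ± 0.41), a protein of secretory vesicles, and Cd5l (-4.12 ± 0.62), a protein that macrophages secrete.

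A difference between the sexes in the change from day 4 to day 15 was called for no gene (0%) by edgeR's quasi-likelihood test and for 0 genes by DESeq2, and 539 genes (3.15%) had an unadjusted p under 0.05. Within females 5674 genes (33.1%) were called and within males 5590 (32.6%). At a mean of at least 1 CPM, and passing over predicted or clone-named genes, the smallest p was for Lbp, the lipopolysaccharide-binding protein, with a log2 change of 2.24 in females and 0.60 in males (difference 1.64 ± 0.35, adjusted p = 0.99993). Among genes with the larger change in males it was for Aldh9a1, an aldehyde dehydrogenase, with -0.61 in females and 1.26 in males (difference -1.88 ± 0.47, adjusted p = 0.99993). With 3 libraries per group, differences of this size between the sexes did not pass the correction for the genes tested, which does not show that the sexes act alike. Chil3 fell by 9.57 in females and by 12.45 in males, where the male value rests on no count at day 15.

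**Figure D5:**
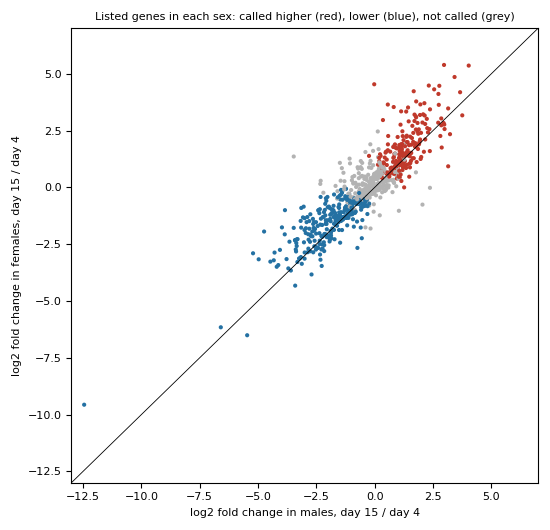
Change from day 4 to day 15 in females (log2, vertical axis) against that in males (log2, horizontal axis) for each tested gene of the 48 lists, with the line of equal change. Red genes rose and blue genes fell over both sexes, and grey genes were not called; no gene's difference between the sexes was called.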

How the data were processed

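RNA of whole muscle was sequenced, and the deposited files hold raw counts per gene symbol (26264 symbols), made with STAR per the file headers; the submitters' processing notes also name edgeR and mm39. The sources used here name no counting program, strand setting, annotation or version, so overlapping and near-identical genes are uncertain. From the counts, edgeR 4.0.16 (R 4.3.3) removed low genes (filterByExpr, 9128 removed), scaled libraries by TMM and fitted 10 groups of 3 libraries in 1 quasi-likelihood model, with the contrast of day 15 minus day 4 averaged over the sexes and its difference between the sexes. Adjusted p-values are Benjamini-Hochberg over all 17136 genes, and 0.05 was the threshold. CPM are counts over the TMM-scaled total. A floor of 6 counts over a group was used for Chil3. The script was tested on simulated data.

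The 48 gene lists, the groups and the rule for named genes were chosen with earlier results of these data known. The rule took the 12 largest rises and falls at a mean of at least 5 CPM without overlap between the days, in each list the first 2 members plus the 3 most changed called ones at a mean of at least 1 CPM, and the 3 smallest p-values for the sex difference in each direction. For the largest changes and the sex difference it passed over predicted or clone-named genes. Not every gene it names is described, and other list members are named as examples chosen after their values were seen. Alternatives were RLE factors, library size alone, other filters, a 1.5-fold threshold, the 12 libraries alone, a replicate block, thinning, DESeq2 1.42.0 and each library left out. Replicates of a group differed beyond counting noise. Promoters came from RefSeq tables (GRCm38.p6), matched by symbol.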

Additional observations from a re-analysis of the deposited data

Results flagged for a closer look

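In groups of 6 libraries, the highest or lowest was compared with its distance to the nearest other; chance picks out about 1 in 20 such groups, and 20 of the 144 groups examined were picked out. The values are log2 CPM, for a list as the mean over its members.

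Female day 4 replicate 2 accounted for 15 of the 20. It was the lowest day 4 library for fast contractile genes (8.12, against 10.4 to 10.8 in the others), creatine, nucleotide and oxygen handling (6.46, against 8.04 to 8.41), glycolysis and glycogen breakdown (7.2, against 8.5 to 9), excitation-contraction coupling (6.98, against 8.08 to 8.58), the respiratory chain and TCA cycle (7.03, against 7.95 to 8.27) and fatty acid oxidation (5.43, against 5.9 to 6.12). Outside the fibre it was the lowest for tendon genes (2.52, against 3.76 to 4.11), small leucine-rich proteoglycans (3.99, against 4.5 to 4.81), dendritic cell genes (1.43, against 2.17 to 2.26) and heat shock genes (6.1, against 6.58 to 6.82). It was the highest for ER stress and secretory genes (7.16, against 6.66 to 6.84). Among single genes it was the lowest for Hmcn2 (1.66, against 4.59 to 5.56), Clec3b (-0.489, against 2.41 to 3.99) and Plin4 (2.44, against 5.17 to 5.72), and the highest for Hmga2 (4.46, against 2.77 to 3.23).

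Among the other 5, female day 15 replicate 1 was the lowest for myogenic differentiation and fusion genes (5.48, against 5.89 to 6.05) and the highest for cholesterol synthesis genes (3.67, against 3.51 to 3.57) and for Chil3 (-2.53, where the other 5 libraries, with no count, were at -4.32). Female day 15 replicate 3 was the highest for neutrophil genes (1.7, against -1.45 to -0.512). Male day 4 replicate 3 was the highest for interferon-stimulated genes (5.8, against 4.53 to 4.96).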

How the results depend on the processing

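Scaling by library size alone gave 2773 genes higher and 6236 lower, so that 30.8% of the calls were higher against 48.2% with TMM, and moved the median log2 change of all genes from -0.0238 to -0.288. A 1.5-fold threshold gave 2140 higher and 2312 lower. Counts under the other settings stayed within 1.5 times: 4200 and 4769 with RLE factors, 4081 and 4712 without a filter, 4117 and 4223 with CPM above 1 in 3 libraries, 5118 and 5266 with the 12 libraries alone, 4089 and 4149 after thinning, and 4429 and 4967 with DESeq2. Leaving out each library gave 3568 to 4250 higher and 4210 to 4689 lower, and 0 to 1 genes that differed between the sexes (1 without male day 15 replicate 1). No gene called in both a setting and the main result changed sign in any setting. The replicate numbers did not pair the samples (6 correlations, -0.0865 to 0.0183, none above 0.1, and no day 15 library was closest to its own number); the fit with the replicate block gave 4228 higher and 4461 lower, and 0 for the sex difference. Among the named genes, values that changed sign were all of genes that were not called. With library size alone the medians of the pericyte (-0.25), fatty acid oxidation (-0.27), T cell (-0.23) and collagen (-0.23) lists changed sign, and so did Fbxo32 (-0.061), Trim63 (-0.19), Cd163 (-0.14), H2-Aa (-0.10) and Lama2 (-0.055). After thinning the erythroid (-0.060) and T cell (-0.12) medians changed sign. The T cell median was -0.016 with the replicate block and -0.18 with CPM above 1 in 3 libraries. The fatty acid oxidation and pericyte medians were -0.012 and -0.016 with RLE factors, -0.013 and -0.016 with DESeq2, and -0.022 and -0.021 without a filter. With 1 library left out, the range was -0.025 to 0.46 for Fbxo32, -0.13 to 0.20 for Trim63, -0.10 to 0.62 for Cd163, -0.19 to 0.32 for H2-Aa, -0.25 to 0.087 for Col1a2 and -0.24 to 0.056 for Acadm, and the list medians ran from -0.20 to 0.14 for T cell, -0.16 to 0.14 for collagen, -0.084 to 0.11 for fatty acid oxidation, -0.093 to 0.038 for pericyte and -0.31 to 0.15 for slow fibre genes; the cause was not tested. Some small list counts moved by over 1.5 times without any 1 of several libraries. For falls, the number of such libraries was 7 for fibro-adipogenic and for proteoglycan genes, 6 for fatty acid oxidation, 4 each for laminin, pericyte and tendon genes, and 2 for endothelial genes. For rises it was 7 for developmental fibre genes, 6 for T cell genes and 1 for dendritic cell genes. The shallower day 15 libraries limit genes of few counts, such as Cd3e.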

Other observations

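A list of 16 circadian clock genes, written after the values were seen, had 9 genes higher at day 15 than at day 4 and none lower (25.1% of all genes rose and 27% fell), with a median log2 change of 0.863 against -0.0238 over all genes. The hour of collection is not given in the sources used here, and its part in these values was not tested.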
